A study of Ovis aries with 8 samples.

Results

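KITLG, its receptor KIT and 6 genes of mast cells (CPA3, FCER1A, MS4A2, HDC, TPSB1 and HPGDS) were followed through kidney fat (perirenal adipose tissue) from 4 NmatCpat and 4 NmatNpat lambs. A gene was taken as measured where the array's platform annotation gave its symbol to a probe set, a group of short oligonucleotides that together read 1 transcript. Of the 8 genes, 4 were measured, out of 9155 genes with a symbol on the array: KITLG on 1 probe set, KIT on 4, FCER1A on 2 and HDC on 1. No probe set carried the symbol CPA3, MS4A2, TPSB1 or HPGDS, so these genes were not analysed here. The annotation did give 2 probe sets to TPSB2, a mast cell tryptase, which is not among the 8 and was added after the annotation had been read.

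NmatCpat lambs carry the Callipyge mutation on the chromosome inherited from the father, and NmatNpat lambs carry the normal allele on both chromosomes. All were males of 12 weeks from 1 Dorset/Suffolk/Rambouillet cross-bred flock, and had not been weaned. Each lamb gave 1 Affymetrix Bovine Genome array, so the oligonucleotides are cattle sequence, and a sheep transcript that differs from cattle under them can read low. Values are log2 intensities, quantile-normalized over the 8 arrays, of which the deposited medians lay between 65.3 and 72.6 on the linear scale. Because the tissue was profiled whole, fewer cells of a type and less RNA per cell cannot be told apart.

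KITLG encodes stem cell factor, made by stromal, endothelial and other cells as a membrane-bound or shed protein. It binds KIT, a receptor tyrosine kinase on mast cells, melanocytes, germ cells and blood progenitors, and mast cells need this signal to survive and mature in tissues. Mast cells reside in adipose tissue near vessels, and are known for granules of histamine, heparin and proteases that they release when antigen crosslinks IgE on their receptor. The question was whether mast cell genes followed KITLG from lamb to lamb.

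The genes were chosen by the readings of KITLG, which had the smallest p of the genotype comparison on these same arrays, so its values are given as a description, without a test. On its 1 probe set it read 8.02, 7.99, 7.55 and 7.97 on the log2 scale in NmatCpat animals 1 to 4, and 5.91, 6.06, 5.74 and 5.83 in NmatNpat animals 1 to 4. Every NmatCpat lamb lay above every NmatNpat lamb, and the gap between the lowest of the first and the highest of the second was 1.49 log2 units. The means were 7.88 ± 0.222 (SD, n = 4) and 5.89 ± 0.136 (SD, n = 4), a 3.99-fold difference. In the deposited linear intensities the same lambs read 261.9, 250.2, 187.2 and 246.5 against 64.9, 66.4, 53.7 and 54.3, so the separation was present before quantile normalization. The gene varied little within a genotype: its SD was 0.184 log2 units, and 80 of the 1000 probe sets nearest to it in mean level had a smaller one (median SD 0.33). A small SD also makes for a small p, so the choice of the gene favoured a small SD as well. There was no other KITLG probe set to set beside it.

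KIT was not separated by genotype as its ligand was. On its brightest probe set it read 6.93, 7.05, 6.82 and 6.67 in NmatCpat animals 1 to 4, and 6.77, 6.80, 7.10 and 7.37 in NmatNpat animals 1 to 4. The genotypes overlapped, and the highest values were those of NmatNpat animals 3 and 4, the lambs with the lowest KITLG readings. The log2 difference, NmatCpat minus NmatNpat, was -0.14 (95% interval -0.59 to 0.31). The limma adjusted p was 0.98, and exact two-sided permutation of the lambs gave p = 0.46. A rise of 2-fold lay outside this interval. It also lay outside those of the dimmer KIT probe sets, except the third brightest, where the 95% interval was -0.91 to 2.19.

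FCER1A, the alpha chain of the IgE receptor, differed widely between lambs, and the genotypes overlapped. It read 5.06, 5.92, 5.85 and 3.57 in NmatCpat animals 1 to 4, and 4.87, 5.93, 3.45 and 5.61 in NmatNpat animals 1 to 4. A single lamb of each genotype, NmatCpat animal 4 and NmatNpat animal 3, lay more than 1 log2 unit below the others of its genotype. The log2 difference was 0.13 (95% interval -1.46 to 1.73), so that neither a 2-fold rise nor a 2-fold fall lay outside the interval. The limma adjusted p was 0.99 and the exact permutation p = 0.74.

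HDC, histidine decarboxylase, the enzyme that makes histamine, was dim, with a mean of 3.87 against a median of 5.99 over all probe sets. It read 4.69, 3.59, 3.74 and 3.29 in NmatCpat animals 1 to 4, and 3.79, 4.66, 3.47 and 3.70 in NmatNpat animals 1 to 4. NmatCpat animal 1 and NmatNpat animal 2 were the highest, and they also had the highest KITLG of their genotypes. Between genotypes HDC differed by -0.08 in log2 (95% interval -0.94 to 0.78), with a limma adjusted p of 0.99 and an exact permutation p = 0.77.

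TPSB2, a tryptase of the mast cell granule, read 4.86, 6.01, 6.13 and 5.06 in NmatCpat animals 1 to 4, and 4.40, 5.56, 6.21 and 6.11 in NmatNpat animals 1 to 4. Low and high lambs were found in both genotypes, with NmatNpat animal 1 the lowest of the 8. The log2 difference was -0.05 (95% interval -1.16 to 1.05), with a limma adjusted p of 0.998 and an exact permutation p = 0.89.

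**Figure D1:**
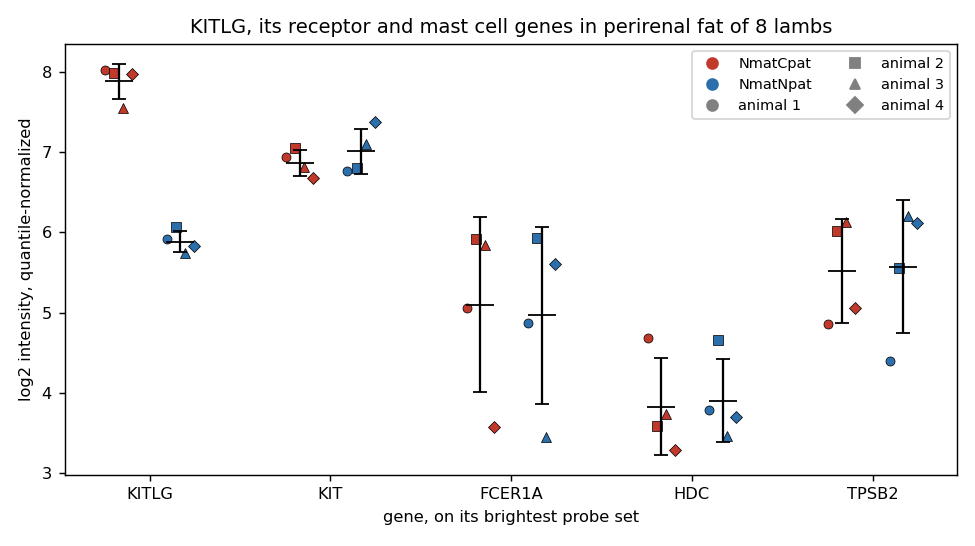
Log2 intensity (vertical axis, quantile-normalized) of KITLG, KIT, FCER1A, HDC and TPSB2, each on its brightest probe set (horizontal axis), in NmatCpat (red) and NmatNpat (blue) lambs. Each point is 1 lamb, its shape the animal number, and each line with its error bar shows the genotype's mean with SD (n = 4). The NmatCpat lambs sit between 7.55 and 8.02 for KITLG, all above the NmatNpat lambs between 5.74 and 6.06, and the other 4 genes overlap.

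Of the 3 measured genes other than KITLG, 0 reached the study's thresholds, an unadjusted P of 0.05 or less from limma together with more than 1.5-fold change (below, P and fold), against 3.93% of all 24016 bovine probe sets (2.04% higher and 1.88% lower in NmatCpat lambs), and 0 had an unadjusted P of at most 0.05 from limma, against 4.66% of all probe sets. The 3 genes had a median log2 difference of -0.08, where all probe sets had 0.0055, and with 1 lamb left out the median of the 3 ran from -0.22 to 0.17, so its sign turned. With TPSB2 included, which was added after seeing the data, the count remained 0. The genes were chosen with results of these data known, so the count is a description of them.

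No dimmer probe set of KIT, FCER1A or TPSB2 passed P and fold. KIT had log2 differences of -0.22, 0.64 and -0.43 on its other 3 probe sets, in order of falling brightness (exact permutation, two-sided p = 0.40, 0.60 and 0.11). The one at 0.64 rested on NmatNpat animal 1, which read 3.11 where the other 7 lambs lay between 5.38 and 6.47, and without this lamb its difference was -0.07. The dimmest one read 4.12, 4.77, 4.48 and 4.62 in NmatCpat animals 1 to 4, and 5.21, 4.80, 4.57 and 5.13 in NmatNpat animals 1 to 4, with the genotypes overlapping. FCER1A had a difference of -0.59 on its other probe set (p = 0.43, exact permutation test), and TPSB2 of -0.15 (p = 0.80, exact permutation test).

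Probe sets of the same gene often ranked the lambs differently, which limits what any 1 of them can say of a gene. Over 8 pairs of probe sets of the same gene and 8 lambs, Pearson's r ran from -0.46 to 0.52, and no pair had an adjusted p under 0.05 (exact permutation test, smallest adjusted p = 0.58, smallest unadjusted p = 0.17). FCER1A shows it most plainly: NmatNpat animal 3 read 3.45 on the brighter probe set, the lowest of the 8 lambs, and 5.81 on the dimmer one, the highest (r = -0.46, rho = -0.17, exact permutation p = 0.27 and 0.70; r = 0.44 without NmatCpat animal 4 and NmatNpat animal 3, exact permutation p = 0.38). The brightest KIT probe set and the third brightest had the highest r, 0.52, and a rho of 0.83 (exact permutation p = 0.17 and 0.015, adjusted over the 8 pairs 0.58 and 0.12). Without NmatNpat animals 3 and 4, the lambs farthest from the median of the brighter one, r was 0.55 (exact permutation p = 0.27).

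**Figure D2:**
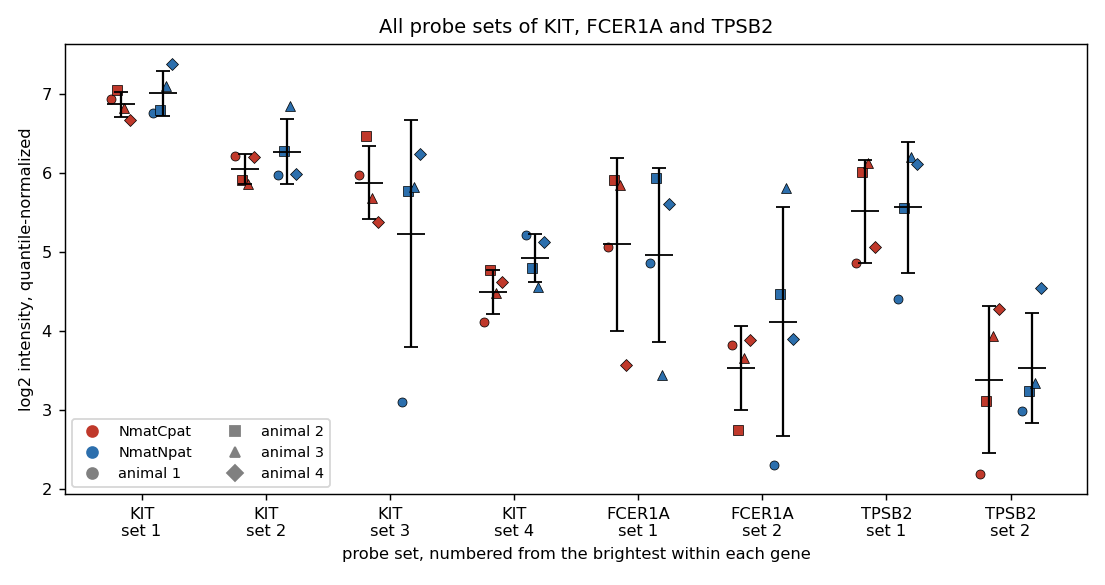
Readings on the log2 scale after quantile normalization (vertical axis) for the 4 probe sets of KIT and the 2 each of FCER1A and TPSB2 (horizontal axis, numbered from the brightest within each gene). Each point is 1 lamb, its shape the animal number, and each line with its error bar shows the genotype's mean with SD (n = 4). The genotypes overlap on all 8 probe sets, and NmatNpat animal 1 lies apart at 3.11 on the third KIT probe set.

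Because KITLG formed 2 clusters, 1 per genotype, a correlation with it over all 8 lambs would restate the genotype, and with 4 lambs in a cluster none was computed for 1 genotype alone. Instead the level of every other probe set was fitted in limma on genotype and KITLG together, and the slope gives the change of a gene, in log2 units, per log2 unit of KITLG among lambs of 1 genotype. Of KIT, FCER1A and HDC, 0 had a slope at P of at most 0.05, against 5.6% of all 24015 probe sets fitted, and none of the probe sets had an adjusted p under 0.05. KIT had a slope of -0.25 (95% interval -1.77 to 1.27, limma adjusted p = 0.98), FCER1A of 0.19 (-5.32 to 5.71) and HDC of 1.37 (-1.33 to 4.06). TPSB2 had a slope of -2.15 (-5.43 to 1.12, limma adjusted p = 0.94). KITLG varied so little within a genotype that these intervals are wide: for KIT, FCER1A and HDC a slope of 1, at which a gene keeps pace with KITLG, lies inside them. For FCER1A the limma adjusted p was 0.99 and for HDC 0.95. NmatCpat animal 3 lay farthest from the KITLG mean of its genotype, at 7.55 against 7.97 to 8.02 in the other NmatCpat lambs, so all slopes lean on this lamb. Without it 0 of KIT, FCER1A and HDC had a slope at P of at most 0.05. The smallest unadjusted P of the 3 from limma was then 0.069, against 0.27 with all 8 lambs.

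**Figure D3:**
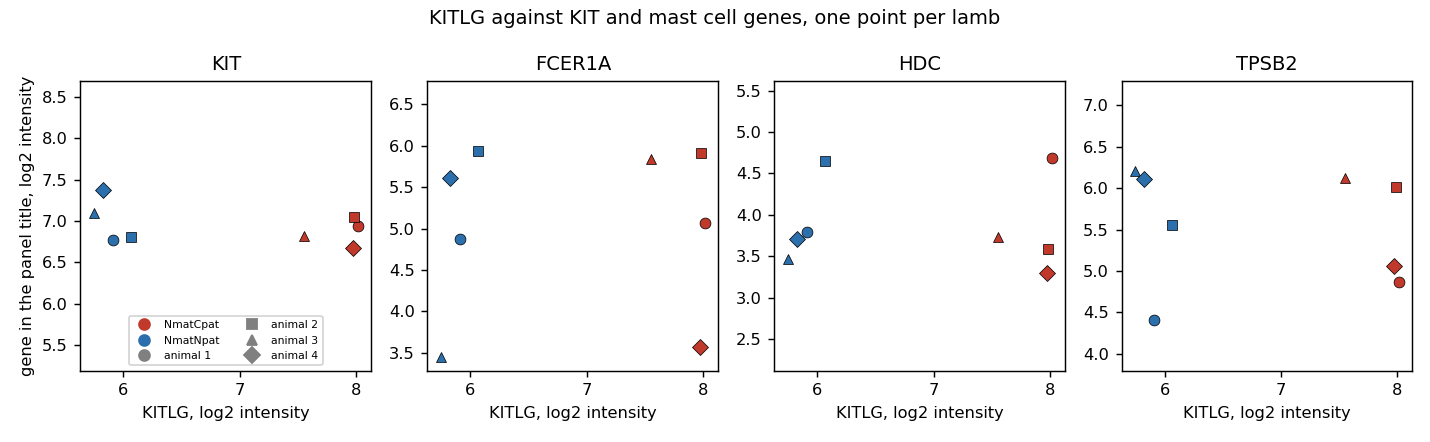
KITLG (horizontal axis) against KIT, FCER1A, HDC and TPSB2 (vertical axes, equal span in each panel), all in log2 intensity and quantile-normalized, with 1 point per lamb (NmatCpat red, NmatNpat blue, marker shape for the animal number). KITLG falls into 2 clusters, 7.55 to 8.02 and 5.74 to 6.06, and the ranges of the other 4 genes overlap between them.

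Of the 3 pairs among KIT, FCER1A and HDC, 0 had a correlation past an adjusted p of 0.05 over the 8 lambs. FCER1A and HDC had r = 0.48 and rho = 0.45 (exact permutation p = 0.21 and 0.27; adjusted over 3 pairs 0.63 and 0.80). This rested on NmatCpat animal 4 and NmatNpat animal 3, without which r was -0.16 (exact permutation p = 0.82). KIT had r = 0.19 with FCER1A (rho = 0.07) and r = -0.11 with HDC (rho = -0.10), with exact permutation p = 0.67 and 0.80 for r, 0.88 and 0.84 for rho, 0.80 for both r adjusted over the 3 pairs, and 0.88 for both rho so adjusted. Without NmatNpat animals 3 and 4 these r were 0.64 and 0.24 (exact permutation p = 0.16 and 0.66). Taken as deviations from the genotype means, r was 0.48 for FCER1A with HDC, 0.22 for KIT with FCER1A and -0.15 for KIT with HDC.

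TPSB2, added after seeing the data, had r = 0.61 and rho = 0.64 with KIT (exact permutation p = 0.11 and 0.096, adjusted over 6 pairs 0.63 and 0.53). Without NmatNpat animals 3 and 4, r was 0.42 (exact permutation p = 0.41). NmatNpat animals 3 and 4 read highest on both KIT and, with NmatCpat animal 3, on TPSB2. Its r was 0.21 with FCER1A (rho = 0.05) and -0.30 with HDC (rho = -0.45), with exact permutation p = 0.61 and 0.47 for r and 0.93 and 0.27 for rho. Adjusted over the 6 pairs, p was 0.80 for both r and 0.93 and 0.53 for rho. Without the 2 lambs farthest from the median of the first gene, these r were 0.88 and -0.02 (exact permutation p = 0.040 and 0.96, unadjusted).

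The genes most like KITLG were sought with the genotype means removed, among 6332 other genes above the median level, by Pearson's r over the 8 lambs. MCTS1, a factor of translation restart, came first with r = 0.986, followed by WDFY1, an adaptor of endosomes, with 0.982, STARD5, a sterol carrier, with 0.979, LIPE, the hormone-sensitive lipase of fat cells, with 0.966, and WBP11, a splicing protein, with 0.964. None of these 5 passed P and fold between the genotypes, with log2 differences from -0.19 to -0.11. LIPE read 12.6, 12.6, 12.2 and 12.6 in NmatCpat animals 1 to 4, so that NmatCpat animal 3 was the low lamb of its genotype for LIPE as for KITLG. Among all 9154 other genes KIT ranked 6199 by likeness to KITLG (r = -0.20), FCER1A 4569 (r = 0.03), HDC 1855 (r = 0.45) and TPSB2 8180 (r = -0.53). FCER1A was most like RAD50, a protein of DNA repair (r = 0.947), SFPQ, a splicing factor (r = 0.947), RAB27A, a GTPase of granule transport (r = 0.944), RABGEF1, an exchange factor of endosomes (r = 0.934), and FGF1, a growth factor (r = 0.934), all over 8 lambs and 6333 genes. By likeness to FCER1A, among all 9154 other genes rather than the 6333, HDC ranked 1124, KIT 2737 and TPSB2 2770. These r are descriptions: the first 5 of each ranking were picked from all the genes compared, over 8 lambs.

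The wider pathway was read from 12 gene lists with 159 genes, of which 96 were measured. Of these 96 genes 1, the cytokine IL6, passed P and fold as higher in NmatCpat lambs and 0 as lower, against 2.91% of the 9155 genes on their brightest probe sets. Their median log2 difference was 0.0098, and 49 of the 96 lay above 0. In 0 of them did the genotypes not overlap, against 2.74% of all probe sets. For the slope on KITLG within genotype 5 of the 96 had P of at most 0.05, a share near the 5.6% given above, and their slopes are given below as descriptions. These slopes lean on NmatCpat animal 3 as well, and no value without this lamb is given for them. Single lambs weighed on many of the values that follow: of 26 list genes named below or in the closing section beyond those with the smallest p, 18 turned sign when 1 lamb was left out. Where a gene is said to pass without a lamb, this too is a description. Each gene had a fit without each lamb in turn, and most such genes were picked for a small p.

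Mast cell granule and surface genes beyond the 8 had 12 of 28 measured and a median log2 difference of -0.10. SRGN, the proteoglycan that packs granule contents, differed by 0.24, and by 0.59, past P and fold, without NmatNpat animal 3. SLC18A2, the vesicle carrier of amines, differed by -0.73, but by -0.14 without NmatNpat animal 1, which read 8.04. Neuron markers also stood out in this lamb, as given below, and a link between these readings was not tested. GZMB, a granule protease, had the smallest p of the list, with a difference of -1.06 and a 95% interval of -2.63 to 0.51, and passed without NmatNpat animal 2 (-1.61). It was dim, with a mean of 4.24, and with 16 added to every intensity it had -0.58. Mast cell transcription factors had 7 of 13 measured and a median of 0.03. MITF differed by -0.03 and GATA1 by -0.18, and BHLHE40 had the smallest p, with -0.46 (95% interval of -1.10 to 0.17), and passed without NmatNpat animal 4 (-0.64). With all 8 lambs 0 genes of either list passed P and fold.

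Downstream of KIT, 12 of 20 relays were measured, with a median log2 difference of 0.0089 and 0 past P and fold. FYN, a kinase of the Src family, had the smallest p, with -0.36 and a 95% interval of -0.72 to 0.01. Of 14 brakes on the receptor 8 were measured, with a median of 0.20, 7 of them above 0 and 0 past P and fold. The median over all probe sets was 0.0055, and the count above 0 is a description. CBLB, a ubiquitin ligase, differed by 0.83 on its brighter probe set, where it passed without NmatNpat animal 3 (1.18), and by -0.06 on the other. SPRED1, which restrains the RAS pathway, differed by 0.03, and by -0.13 without NmatCpat animal 1. Its slope on KITLG was 1.40 (95% interval 0.08 to 2.73, limma adjusted p = 0.88).

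IgE receptor relays had 10 of 13 measured, a median log2 difference of -0.0074 and 0 past P and fold. FCER1G, the signalling chain that pairs with FCER1A, differed by -0.02, and the kinase BTK by 0.24. SYK, another kinase, differed by -0.37, but by 0.44 without NmatCpat animal 1, which read 1.80. LCP2, an adaptor of the same chain, had the smallest p, with -0.95 and a 95% interval of -2.08 to 0.18, and -0.42 without NmatCpat animal 2.

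Proteases that can shed or process membrane proteins such as KITLG, with their inhibitor TIMP3, had 6 of 8 measured, a median of -0.05 and 0 past P and fold. ADAM19 had the smallest p, with -0.31 (95% interval of -0.96 to 0.35), and MMP9 differed by 0.14. MMP2 had a genotype difference of -0.06 and a slope on KITLG of -2.52 (95% interval -4.47 to -0.56, limma adjusted p = 0.86). In the kinase class of KIT, 6 of 11 receptors and ligands were measured, with 0 past P and fold and a median of -0.10. CSF1R, the receptor of macrophages, differed by -0.04 and PDGFRB by -0.19. PDGFRA, a receptor of stromal cells, had the smallest p, with 0.31, while its 2 dimmer probe sets had -0.22 and 0.32.

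Among 14 cytokines that act on mast cells, 11 were measured, and their median log2 difference was -0.02. IL6 was higher by P and fold, with a limma adjusted p of 0.98. It read 4.85, 2.69, 4.54 and 2.12 in NmatCpat animals 1 to 4, and 1.20, 2.22, 1.55 and 2.03 in NmatNpat animals 1 to 4. NmatCpat animals 1 and 3 stood high, and NmatCpat animal 4 lay below NmatNpat animal 2. The log2 difference was 1.80 (95% interval 0.33 to 3.27, exact permutation p = 0.057, two-sided). All its readings were below the median of 5.99 over all probe sets, and adding 16 to every intensity first gave a difference of 0.62. It did not pass with the animal number as a block, or without NmatCpat animal 1, NmatCpat animal 3, NmatNpat animal 1 or NmatNpat animal 3, where it ran from 1.37 to 1.73. IL33, an alarmin for mast cells, differed by -0.25 and IL4 by -0.02. IL10 had a slope on KITLG of -1.96 (95% interval -3.50 to -0.42, limma adjusted p = 0.87).

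Receptors for mast cell mediators had 6 of 12 measured, a median of 0.14 and 0 past P and fold on their brightest probe sets. The histamine receptor HRH1 differed by 0.02. PTGDR2, a receptor for the prostaglandin D2 that mast cells release, had 0.18 on its brightest probe set, while its dimmer one passed P and fold as lower, with -1.34 (95% interval of -2.57 to -0.10). PTGER2, a prostaglandin E2 receptor, had the smallest p, with 1.96 and a 95% interval of -0.57 to 4.49. It passed without NmatNpat animal 3 (2.96), and with 16 added to every intensity it had 0.36. Prostaglandin and other arachidonic acid enzymes had 9 of 12 measured, a median of -0.26 and 0 past P and fold. PTGDS, the prostaglandin D synthase of brain and fat, differed by -0.26, PTGS2 by -0.35, and ALOX15, a lipoxygenase, had the smallest p, with -0.41, and passed without NmatNpat animal 1 (-0.66). All 4 genes of histamine breakdown were measured, with a median of -0.04 and 0 past P and fold, and HNMT, the methyltransferase of histamine, had the smallest p, with -0.91 (95% interval of -2.22 to 0.40). HNMT passed with the animal number as a block and without NmatCpat animal 4 (-1.29), and had -0.52 without NmatCpat animal 2.

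Sheep assembly ARS-UI_Ramb_v3.0 was used to order the genes beside KITLG. Of 11 neighbours 5 were measured, with a median log2 difference of 0.11 and 0 past P and fold. CEP290, a ciliary protein 2 genes from KITLG on one side, differed by 0.12, and POC1B, a centriole protein 2 genes away on the other side, by 0.09. ATP2B1, a calcium pump 4 genes away, differed by 0.11. Farther off, NTS, the neuropeptide neurotensin, differed by 0.79 and SLC6A15, an amino acid transporter, by -1.81 (95% interval of -3.88 to 0.26), the smallest p of the list. SLC6A15 passed without NmatCpat animal 1 (-2.25) or NmatCpat animal 2 (-2.51), and had -1.13 without NmatCpat animal 4. It was dim, with a mean of 3.39, and with 16 added to every intensity it had -0.53. POC1B had a slope on KITLG of 2.88 (95% interval of 0.49 to 5.26) and ATP2B1 of -1.20 (-2.36 to -0.05), with limma adjusted p of 0.87 and 0.88.

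**Figure D4:**
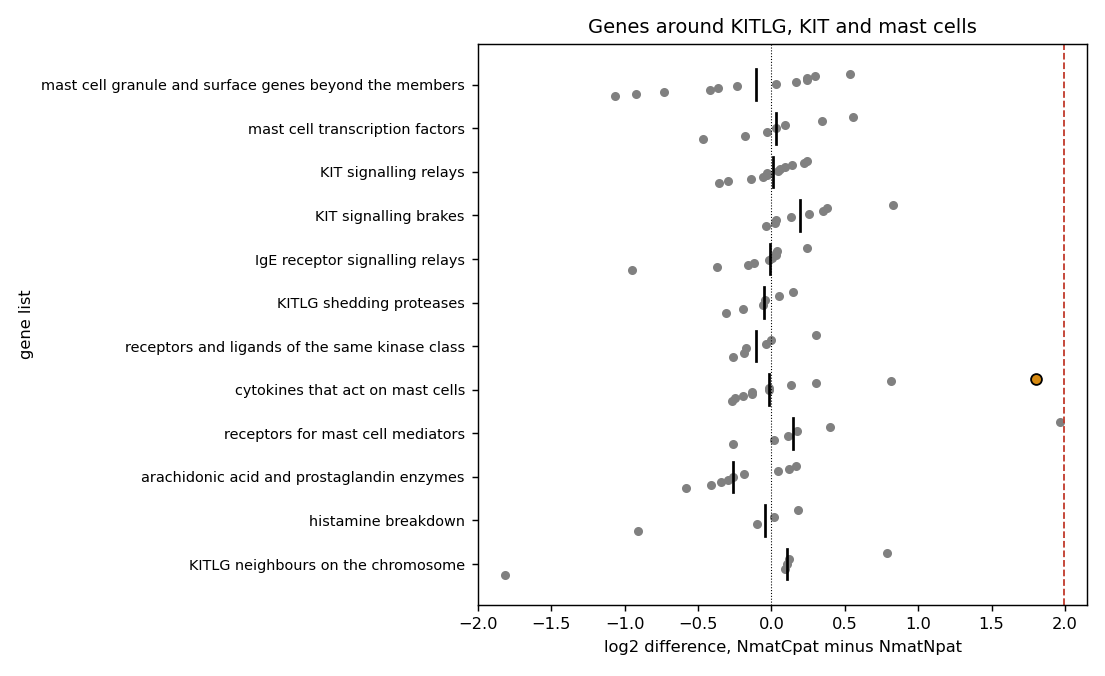
Log2 difference, NmatCpat minus NmatNpat (horizontal axis), of the measured genes of 12 lists (vertical axis), each point 1 gene on its brightest probe set, with the list's median as a black bar. The orange point, IL6, is the one of 96 genes past P and fold, and the dashed line is KITLG at 1.996.

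Neuron markers stood out in NmatNpat animal 1. All 7 were measured, with 0 above 0, a median log2 difference of -1.59 and 0 past P and fold. NEFL, a neurofilament, had -4.16, which was -2.16 without NmatNpat animal 1, and it passed without NmatNpat animal 2 (-5.35). Their summed linear intensity was 18689 in that lamb, against 186 to 488 in the other NmatNpat and 205 to 380 in NmatCpat lambs. KITLG read 5.91 there, within the 5.74 to 6.06 of its genotype, and without this lamb the log2 KITLG difference was 2.005, against 1.996 with all 8. Adipocyte markers, measured for 6 of 7 genes, summed to between 32448 and 36204 in NmatCpat and between 33140 and 34622 in NmatNpat lambs, with 0 of the 6 past P and fold and LIPE, the one with the smallest p, at -0.17. Its dimmer probe sets had 0.11, -0.04 and -0.73, the last past P and fold (95% interval of -1.27 to -0.19). Markers of endothelial cells, which can make KITLG, had 8 of 9 measured, a median log2 difference of 0.10 and 0 past P and fold, with TIE1 at -0.27 (95% interval of -0.66 to 0.12). Summed, they read 5632 to 6929 in the NmatCpat group against 5382 to 6380 in the other. All 9 stromal markers were measured, with a median of -0.02, 0 past P and fold, and sums of 36240 to 60756 and 38591 to 60411. THY1 had the smallest p, with -0.46, and passed without NmatNpat animal 3 (-0.65). A dimmer probe set of COL1A1, a collagen chain, passed with 1.39, while its brightest had 0.07. The part of these cell types in the KITLG readings was not tested.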

How the data were processed

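Perirenal adipose tissue of 4 NmatCpat and 4 NmatNpat lambs was profiled, 1 Affymetrix Bovine Genome array per lamb. The authors made the deposited intensity values with MAS5 (version not given in the sources used here) on a linear scale, for 24128 probe sets with a lowest value of 0.1. The paper's methods name background correction and quantile normalization after MAS5. The deposited columns do not share quantiles, so log2 values were quantile-normalized here, and 112 control probe sets were then left out. Samples were assigned by their titles.

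The 24016 bovine probe sets entered a linear model in limma 3.58.1 (R 4.3.3) with moderated variances and Benjamini-Hochberg adjustment, NmatCpat minus NmatNpat, without covariates. A probe set was called where limma's unadjusted P was 0.05 or less, with more than 1.5-fold change. The slope on KITLG was fitted with genotype as a further term. Exact permutation tests were two-sided, over 70 arrangements of the lambs (smallest p 0.0286) or all pairings. Intervals are at the 95% level, and 8 arrays limit all precision.

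The brightest probe set stood for a gene. In the annotation, which can be old, 13292 probe sets had 1 symbol, 86 had more and 10638 had none. The 8 genes and 22 gene lists were chosen with earlier results of these data known. Named were the 8 genes, up to 4 called genes of each list or else that with the smallest p, and the 5 genes most like KITLG and FCER1A; further list members and the lambs singled out were chosen after their values were seen. Alternatives were other variance estimates, array weights, median centring, cyclic loess, an offset of 16, filters on probe sets, the mean of a gene's probe sets, leaving out each lamb, blocking on the animal number and other fold thresholds. Scripts were tested on simulated data. No sequences were used.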

Additional observations from a re-analysis of the deposited data

Results flagged for a closer look

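In 14 of 162 groups of 4 lambs, over the probe sets named here, 1 lamb stood apart from the other 3 by Dixon's ratio. Chance flags about 1 in 20 unselected groups, but many of these probe sets were picked from their values in these same lambs. Genes picked for likeness to KITLG also share its low lamb. The 14 are therefore a description and cannot be set against that rate. In NmatCpat animal 3 KITLG read 7.55, against 7.97 to 8.02 in the other NmatCpat lambs, and 4 genes picked for their likeness to KITLG were low as well. MCTS1 read 8.16 against 8.78 to 8.89, WDFY1 7.93 against 8.43 to 8.47, LIPE 12.2 against 12.6 in each of the others, and WBP11 9.79 against 10.2 to 10.3. FYN was high in this lamb, at 10.8 against 10.5 in each of the others. RABGEF1 read 7.15 in NmatCpat animal 4, against 7.74 to 7.81.

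In NmatNpat animal 1 the KIT probe set that ranked behind the brightest pair read 3.11, against 5.77 to 6.24 in the others of its genotype, and ALOX15 read 6.85 against 7.79 to 7.96. The same lamb was high on the dimmer probe sets of SLC6A15, at 8.45 against 2.42 to 3.14, and of MYH1, at 2.65 against 1.73 to 1.87. In NmatNpat animal 2 GZMB read 3.12 against 5.17 to 5.56, and HRH1 read 3.78 against 5.22 to 5.40. A dimmer probe set of PDGFRA read 3.49 in NmatNpat animal 4, against 4.63 to 4.71.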

How the results depend on the processing

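Among the measured genes other than KITLG 0 passed P and fold under 22 alternatives, of which the filter on level tested KIT alone and another added TPSB2, and 0 pairs of them had a correlation past an adjusted p of 0.05 under 13. The KITLG difference was 1.74 with an offset of 16 and ran from 1.95 to 2.11 with 1 lamb left out. Of all probe sets, 943 passed P and fold, against 626 without moderated variances, 244 among those above the median level and 317 among genes taken as the mean of their probe sets, the last 2 with fewer features tested. With 1 lamb left out the count ran from 980 to 1054. With the mean of a gene's probe sets FCER1A turned to -0.23, CD3D to 0.0058 and CCR3 to -0.040. Without NmatNpat animal 1 and NmatCpat animal 4 HDC turned to 0.063, C1QC to -0.41 and ETV1 to 0.17. With 1 lamb left out FCER1A ran from -0.37 to 0.64, HDC from -0.36 to 0.17, TPSB2 from -0.44 to 0.16 and C1QC from -0.058 to 1.13. Of the 22 list genes with the smallest p or past P and fold, 11 beside IL6 passed in at least 1 of the fits that left out 1 lamb. These genes were picked for a small p, and each had a fit without each lamb in turn, so such crossings are easily met. The share of all probe sets that would pass in this way was not computed, and the count is a description. The cause of these changes was not tested.

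Lambs with the same animal number in both genotypes did not deviate together (r = 0.04, 0.0054, 0.05 and -0.01 over probe sets), so the number gives no pairs. With the number as a replicate block 1124 probe sets passed P and fold, 0 of KIT, FCER1A and HDC among them. For the slope on KITLG the block left 2 residual degrees of freedom, and 1 gene, FCER1A, had P of at most 0.05 (slope -9.75, 95% interval -19.2 to -0.32, unadjusted P = 0.045 and adjusted p = 0.99998 from limma), against 4.89% of all probe sets. FCER1A and HDC read below the median level, and 8 arrays leave wide intervals for both.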

Other observations

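Other cell types were read from the lists not yet described. Macrophage markers had 8 of 10 genes measured, a median log2 difference of 0.0061 and 0 past P and fold. The one with the smallest p, C1QC, a complement subunit, had 0.64, but -0.06 without NmatNpat animal 1. Lymphocyte markers had 9 of 11 measured, 1 of them above 0, a median of -0.24 and 0 past P and fold. Here too the count above 0 is a description, beside a median of 0.0055 over all probe sets. CD3D, a chain of the T cell receptor complex, had -0.76 on its brighter probe set and 0.77 on the other. The summed linear intensity of the lymphocyte markers ran from 504 to 598 among NmatCpat lambs, and NmatNpat animal 1 was highest of its genotype (510 to 1013).

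The markers of other cells that can carry KIT, and of muscle, came next. Melanocyte markers had 4 of 5 measured, a median of -0.49 and 0 past P and fold. TYRP1, an enzyme of melanin synthesis, had the smallest p, with -0.81, and passed without NmatNpat animal 1 (-1.51). With 16 added to every intensity TYRP1 had -0.34. Of 5 genes of interstitial and progenitor cells 2 were measured, CD34 with 0.02 and ETV1 with -0.24. Of 8 eosinophil and basophil genes only CCR3, a chemokine receptor, was measured, with 0.30 on its brighter probe set and -0.38 on the other. Skeletal muscle markers had 5 of 6 measured, a median of 0.34 and 0 past P and fold. ACTA1, skeletal actin, had the smallest p, with 1.37. Its interval ran from -0.07 to 2.81, and exact two-sided permutation of the lambs gave p = 0.14. Of 19 alternatives ACTA1 passed in 6 and did not pass in 13. It passed without NmatNpat animal 1 (1.71) or NmatNpat animal 4 (1.65). It also passed with a trended robust variance, an offset of 16, the filter on level and the animal number as a block. It did not pass without NmatNpat animal 2 (0.93) or NmatCpat animal 4 (0.97). A dimmer probe set of MYH1, a fast myosin, passed with 2.08 (limma adjusted p = 0.98), while its brightest had 0.31. With 1 lamb left out the brightest ran from -0.0073 to 0.63. The passing probe set had a mean of 3.04, and NmatCpat animal 3 read 1.72 on it, below every NmatNpat lamb. ACTA1 read 9.92 in NmatCpat animal 4, where KITLG read 7.97.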
